A study of Mus musculus with 11 samples.

Results

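Genes that load and start the replicative DNA helicase were followed through the RNA-seq libraries of alveolar macrophages (AMs) lacking the retinoid X receptors RXRα and RXRβ. The genes are Mcm2, Mcm3, Mcm4, Mcm5, Mcm6, Mcm7, Mcm10, Cdc6, Cdc45 and Gins2, chosen by name, and all 10 were among the 12932 genes of the table. The cells were sorted from 9-week-old mice of the C57BL/6J background at 40000 cells per library, and mice of both sexes were used. Control mAMs (mature AMs, CD11b-/SiglecF+) came from CD11cCre- Rxrabfl/fl mice (4 libraries). RXR-deficient mAMs came from CD11cCre+ Rxrabfl/fl mice (4 libraries, of which replicates 1 to 3 enter the fit). ImmAMs (immature AMs, CD11b+/SiglecF+) came from CD11cCre+ Rxrabfl/fl mice as well (3 libraries, replicates 2 to 4). All groups therefore carried the floxed alleles of Rxra and Rxrb, and Cre was driven by Cd11c, which is active in dendritic cells as well as AMs. ImmAMs without Cre are not analysed here, so the ImmAMs differed from control mAMs in both maturity and genotype.

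A replication origin is licensed when the origin recognition complex, CDC6 and CDT1 place rings of MCM2 to MCM7 on DNA before S phase. The rings are idle until CDC45 and the GINS complex join them and MCM10 helps to switch them on, which turns them into the moving helicase of the replication fork. Geminin holds CDT1 back after S phase has begun, so that each origin is used once per cycle. AMs are known to renew themselves in the lung by division, and the transcripts of these genes are commonly driven by E2F factors as cells enter the cycle.

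Reads counted per library ranged from 16659960 to 37873532, and the deposited values are CPM, which set reads relative to a library size scaled by the TMM method. A gene was called where limma, fitted over 12889 genes with 1 mean per group, gave an adjusted p (p-adj, Benjamini-Hochberg) under 0.05. All 12 AM markers were present in every group. Their summed levels were 21718 to 28127 CPM in control mAMs and 23906 to 25677 CPM in ImmAMs. In RXR-deficient mAM replicates 1 to 3 they were 26233 to 32016 CPM. Single markers departed from these sums. Siglecf, the sorting marker, was at 244 to 264 CPM in control mAMs and 19.3 to 19.7 CPM in ImmAMs. Marco was at 310 to 377 and 10.9 to 13.8 CPM, and Krt79 at 594 to 759 and 5.96 to 7.01 CPM, in the same order. Car4 was at 308 to 347 and 101 to 111 CPM, and Itgax at 1520 to 1687 and 1401 to 1453 CPM. All markers named here were lower in every ImmAM library than in every control library. The mean sum of all 12 markers was 25542 CPM in control mAMs and 24865 CPM in ImmAMs, a smaller fall than that of the named markers together. The other markers of the list, not set out singly, were therefore together higher in mean in ImmAMs. Of the deleted genes, Rxra was at 310.2 to 379.5 CPM in control mAMs and 334 to 351 CPM in the 3 RXR-deficient mAM libraries, and Rxrb at 51.4 to 72.1 and 39.3 to 52.8 CPM. Neither was called between these groups (limma p-adj = 0.993 and 0.0972), and the table holds no exon-level values. In ImmAMs Rxra was at 283 to 305 CPM and Rxrb at 31.9 to 35.2 CPM, below every control library. The study reported efficient deletion of both genes in mAMs and ImmAMs from their relative mRNA levels. On the second principal component control replicates 2 and 4 and RXR-deficient mAM replicate 4 stood apart, at −28.3, −35.6 and −24.7 against −11.5 to 31.9 for the other 8 libraries, and no label explains this. The study's legends count the libraries of a group as mice, which the labels do not state, and the p-values measure the spread between these libraries. Xist, of the inactive X chromosome, and the Y-linked gene Ddx3y were both read in every library. Whether a library is a single mouse or a pool is not given by the labels.

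The promoters are shown first, for the genes with the largest differences and for those that hold the letters of an E2F site before the start. RefSeq promoters of 250 bases before and 50 bases after the start site (GRCm38.p6) were at hand for 8 of the 10 genes, and Mcm4 and Gins2 had no entry. In the 250 bases before the start, TTTCCCGC, TTTGGCGC, TTTCGCGC or TTTGCCGC, on either strand, was found in 4 of these 8 genes (Mcm5, Mcm6, Mcm7 and Cdc6) and in 1.86% of all 32851 promoters. Mcm3, not shown, holds such letters only after the start, beginning 19 and 38 bases past it. Over all 300 bases they were found in 5 of the 8 genes, Mcm3 included, and in 2.26% of all promoters. CCAAT was found in 7 of the 8 genes, all but Cdc6, and in 33.8% of all promoters. AGGTCA, the half-site of nuclear receptors, was found in Mcm2 alone of the 8 and in 14.0% of all promoters. These are matches of letters, not measured binding. In the sequences, each of 180 bases up to the base before the RefSeq start and written 5′ to 3′ along the gene's own strand, capitals mark these E2F letters and CCAAT, or their reverse complements such as GCGGGAAA and ATTGG.
Mcm5: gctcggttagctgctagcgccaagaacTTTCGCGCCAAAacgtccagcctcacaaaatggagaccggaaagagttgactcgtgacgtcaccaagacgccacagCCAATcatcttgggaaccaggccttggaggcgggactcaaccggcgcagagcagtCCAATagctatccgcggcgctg
Mcm6: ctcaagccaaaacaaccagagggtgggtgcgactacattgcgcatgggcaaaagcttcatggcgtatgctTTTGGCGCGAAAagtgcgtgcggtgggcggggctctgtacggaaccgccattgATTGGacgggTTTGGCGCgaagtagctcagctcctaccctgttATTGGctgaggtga
Mcm7: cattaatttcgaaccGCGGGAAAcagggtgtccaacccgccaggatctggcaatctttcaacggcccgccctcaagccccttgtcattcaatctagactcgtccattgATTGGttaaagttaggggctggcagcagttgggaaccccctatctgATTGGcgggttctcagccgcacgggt
Cdc6: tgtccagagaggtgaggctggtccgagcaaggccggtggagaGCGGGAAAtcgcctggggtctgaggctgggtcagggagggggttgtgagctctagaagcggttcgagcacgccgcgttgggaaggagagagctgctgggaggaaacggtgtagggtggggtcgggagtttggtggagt
Mcm10: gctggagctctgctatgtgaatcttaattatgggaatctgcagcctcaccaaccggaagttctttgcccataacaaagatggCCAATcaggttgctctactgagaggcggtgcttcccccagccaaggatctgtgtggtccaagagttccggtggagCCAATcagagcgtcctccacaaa
The stretches lie at chr8:75109329-75109508 (plus strand), chr1:128359706-128359885 (minus), chr5:138171884-138172063 (minus), chr11:98907971-98908150 (plus) and chr2:5012792-5012971 (minus). In Mcm5 and Mcm6, E2F letters on the opposite strands overlap within a single run, which begins at position −153 in Mcm5 and −110 in Mcm6, counting the base before the start as −1. Mcm6 has another match at −47, Mcm7 a match at −165 and Cdc6 a match at −138. Mcm10, which had the lowest mean level in ImmAMs, has no E2F letters in this window and CCAAT at −98 and −23. The Mcm7 start used here lies 539 bases and the Cdc6 start 350 bases downstream of the gene's first base in GENCODE, and starts that are not in the RefSeq table were not searched. Mcm7 had a further RefSeq start, whose window holds none of the 4 E2F spellings.

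CDC6 is the loader that, with the origin recognition complex, receives the MCM ring. Cdc6 (ENSMUSG00000017499, chromosome 11, 98907801 to 98923940) was at 6.41, 8.67, 7.08 and 7.73 CPM in control mAMs 1 to 4. In RXR-deficient mAMs it was at 3.72, 8.94 and 3.96 CPM, and at 4.79 CPM in replicate 4, which the study did not use. In ImmAMs it was at 1.70, 1.04 and 0.656 CPM, from 12 to 28 reads. All ImmAM libraries lay below all others, whereas replicate 2 of the RXR-deficient mAMs was above every control library. Cdc6 was 7.06-fold lower in ImmAMs than in control mAMs (limma p-adj = 2.6e-05, log2 fold change −2.82 with SE 0.355), and the value was −2.01 with 1 CPM added before the logarithm. Its difference between both kinds of mAMs was within the spread (−0.55, SE 0.355, p-adj = 0.372).

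MCM2 to MCM7 form the ring itself. Mcm5 (ENSMUSG00000005410, chromosome 8, 75109569 to 75128439) was the ring subunit with the lowest level in ImmAMs relative to control mAMs. It was at 33.3, 41.0, 48.2 and 41.5 CPM in control mAMs, at 27.5, 27.3 and 16.5 CPM in RXR-deficient mAMs (34.2 CPM in replicate 4) and at 3.43, 4.52 and 4.02 CPM in ImmAMs. The 3 groups did not overlap without replicate 4, which lay above the lowest control library. Mcm5 was 1.76-fold lower in RXR-deficient mAMs (limma p-adj = 0.0314, log2 fold change −0.82 with SE 0.187) and 10.3-fold lower in ImmAMs (−3.36, SE 0.187, p-adj = 1.49e-08) than in control mAMs.

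Mcm6 (ENSMUSG00000026355, chromosome 1, 128331590 to 128359664) was at 59.98, 70.8, 79.3 and 66.7 CPM in control mAMs, at 49.2, 59.1 and 41.9 CPM in RXR-deficient mAMs (54.5 CPM in replicate 4) and at 13.9, 16.1 and 16.7 CPM in ImmAMs. No RXR-deficient library reached the lowest control library, and the ImmAMs stood far below both. Against control mAMs the difference was −0.47 on the log2 scale in RXR-deficient mAMs (limma p-adj = 0.0508, SE 0.126, not called) and −2.15 in ImmAMs (SE 0.126, p-adj = 2.27e-08). Mcm2 (ENSMUSG00000002870, chromosome 6, 88883474 to 88898780) was at 33.3, 44.7, 47.9 and 38.5 CPM, then at 27.4, 33.7 and 24.1 CPM (32.6 CPM in replicate 4), and at 10.6, 9.76 and 11.2 CPM in the same order of groups. The mAM groups overlapped in this gene through RXR-deficient replicate 2. Its log2 fold change against control mAMs was −0.53 in RXR-deficient mAMs (limma p-adj = 0.0512, SE 0.142, not called) and −1.95 in ImmAMs (SE 0.142, p-adj = 1.61e-07).

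Mcm3, Mcm7 and Mcm4 were the ring genes with the smaller differences in ImmAMs. Mcm3 (ENSMUSG00000041859, chromosome 1, 20802968 to 20820312) was at 64.0, 71.8, 92.2 and 74.8 CPM in control mAMs, at 43.6, 55.3 and 38.7 CPM in RXR-deficient mAMs (57.1 CPM in replicate 4) and at 29.1, 31.6 and 27.2 CPM in ImmAMs. Neither the mAM groups nor the ImmAMs overlapped, with or without replicate 4. It was 1.65-fold lower in RXR-deficient mAMs (limma p-adj = 0.0128, log2 fold change −0.73 with SE 0.135) and 2.57-fold lower in ImmAMs (−1.36, SE 0.135, p-adj = 2.94e-06).

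Mcm7 (ENSMUSG00000029730, chromosome 5, 138164583 to 138172422) was at 61.4, 73.5, 75.3 and 63.9 CPM in control mAMs, at 51.0, 56.3 and 44.9 CPM in RXR-deficient mAMs (62.9 CPM in replicate 4) and at 26.3, 26.3 and 23.4 CPM in ImmAMs. Replicate 4 was again within the control range, and the other RXR-deficient libraries were below it. The log2 fold change against control mAMs was −0.44 in RXR-deficient mAMs (limma p-adj = 0.0343, SE 0.102) and −1.43 in ImmAMs (SE 0.102, p-adj = 1.36e-07). Of the 60-base windows of Mcm7 transcripts, 14.3% also occur in Gm5487, Mir25 or Mir93, and its locus overlaps Cops6 and Ap4m1 on the other strand, so that its counts are less certain than those of the other ring genes.

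Mcm4 (ENSMUSG00000022673, chromosome 16, 15623897 to 15637400) was at 56.7, 59.7, 70.3 and 56.9 CPM in control mAMs, at 46.3, 52.9 and 43.9 CPM in RXR-deficient mAMs (50.3 CPM in replicate 4) and at 27.9, 20.5 and 29.3 CPM in ImmAMs. The groups did not overlap. The log2 fold change against control mAMs was −0.35 in RXR-deficient mAMs (limma p-adj = 0.119, SE 0.128, not called) and −1.24 in ImmAMs (SE 0.128, p-adj = 4e-06).

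MCM10, CDC45 and the GINS complex act when the loaded ring is started. Mcm10 (ENSMUSG00000026669, chromosome 2, 4989714 to 5012791), whose product helps to activate the loaded ring, was at 9.50, 10.2, 10.8 and 9.85 CPM in control mAMs. It was at 7.09, 9.41 and 5.24 CPM in RXR-deficient mAMs (7.81 CPM in replicate 4) and at 0.447, 1.09 and 0.814 CPM in ImmAMs, from 7 to 23 reads. Only 1 of the 3 ImmAM libraries reached 1 CPM, so Mcm10 passed the filter on low values (1 CPM in at least 3 libraries) through the mAMs, as did Cdc6, at 1 CPM in 2 of the 3. It was 13.7-fold lower in ImmAMs than in control mAMs (limma p-adj = 2.9e-07, log2 fold change −3.78 with SE 0.292), and in RXR-deficient mAMs the log2 fold change was −0.52 (SE 0.292, p-adj = 0.302, not called). At such low levels the ImmAM value depends on the pseudocount: it was −3.08 with 0.5 CPM added to every value and −2.65 with 1 CPM added, where Mcm5 was at −3.20 and −3.07, so that Mcm10 had the largest difference of the 10 genes only with nothing added to the deposited values.

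CDC45 joins the ring when the origin fires. Cdc45 (ENSMUSG00000000028, chromosome 16, 18780447 to 18811987) was at 7.89, 8.26, 7.49 and 7.59 CPM in control mAMs, at 4.92, 7.75 and 4.63 CPM in RXR-deficient mAMs (8.32 CPM in replicate 4) and at 2.71, 3.32 and 2.18 CPM in ImmAMs. The RXR-deficient libraries fell into a pair at the control level and a pair below it, and the ImmAMs were below both groups of mAMs. Its log2 fold change against control mAMs was −0.48 in RXR-deficient mAMs (limma p-adj = 0.207, SE 0.217, not called) and −1.53 in ImmAMs (SE 0.217, p-adj = 7.27e-05). Cdc45 overlaps Ufd1 on the other strand.

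GINS2 is a subunit of the GINS complex. Gins2 (ENSMUSG00000031821, chromosome 8, 120578633 to 120589304) was at 37.7, 38.7, 31.4 and 37.9 CPM in control mAMs, at 29.98, 28.6 and 28.5 CPM in RXR-deficient mAMs (32.0 CPM in replicate 4) and at 21.1, 24.9 and 34.9 CPM in ImmAMs. The highest ImmAM library was above a control library and above every RXR-deficient library. Gins2 was 1.38-fold lower in ImmAMs than in control mAMs (limma p-adj = 0.0183, log2 fold change −0.46 with SE 0.144), a call that was lost without ImmAM replicate 2 (p-adj = 0.105) or 3 (0.0649) and with control replicates 1 and 3 only (0.107). Against RXR-deficient mAMs the ImmAM value was −0.14 (SE 0.154, p-adj = 0.515), the sole member not called in that comparison. Gins2 overlaps Gse1 and Gm20388 on the other strand, and the libraries were made with a directional kit, while the strand setting of the authors' quantification is not given in the sources used here.

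**Figure D1:**
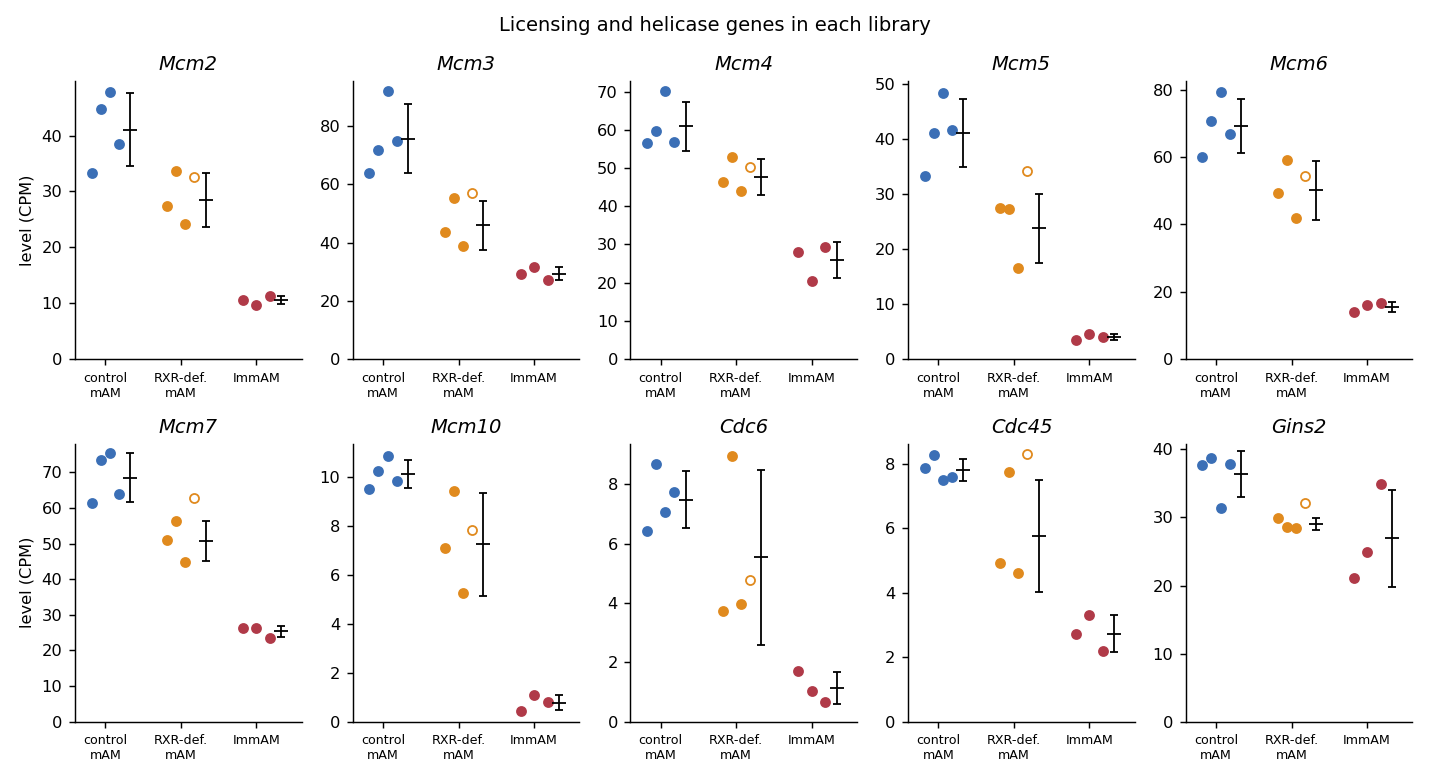
Level of each gene in CPM (vertical axes, linear and starting at 0) in every library of control mAMs (blue), RXR-deficient mAMs (orange, replicate 4 open) and ImmAMs (red), with the mean and SD of the 4, 3 and 3 libraries used in the fit. In 9 of the 10 genes all ImmAM points lie below all mAM points, and in Gins2 the groups overlap.

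The question of the comparison between both kinds of mAMs is whether mature AMs without RXRs differ from control mAMs. All 10 genes had a negative log2 fold change, from −0.82 (Mcm5) to −0.32 (Gins2), with a median of −0.50, beside a median of −0.0019 over the 12889 genes tested. Mcm3, Mcm5 and Mcm7 were called, 3 of 10, whereas 2.59% of all genes were called lower. In 7 of 10 genes every one of the 3 RXR-deficient libraries was below every control library, against 11.2% of all genes, and with replicate 4 counted this held for 4 (Mcm3, Mcm4, Mcm6 and Mcm10), against 4.16% of all genes. In bulk samples such as these, fewer cycling cells and less of a transcript per cell cannot be told apart. By flow cytometry of mice of the same age, the study reported more BrdU-positive cells among RXR-deficient mAMs than among control mAMs. It also reported more of them in S, G2 or M phase. The part of cycling cells in the licensing values was not tested.

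The number called was small and depended on single libraries. With the 10 libraries of the limma fit 8 members had an unadjusted p under 0.05, beside 3042 of all 12889 genes. For the alternatives below such shares over all genes are not given. No member was called without RXR-deficient mAM replicate 3, although 5 had an unadjusted p under 0.05, and only Mcm5 was called without replicate 1. Mcm3 alone was called without control replicate 2 or 3, Mcm3 and Mcm7 without control replicate 4, and 5 genes (with Mcm2 and Mcm6) without control replicate 1 or RXR-deficient replicate 2. With all 11 libraries Mcm3 alone was called. With control replicates 1 and 3 only, which leaves out the control libraries apart on the second component, none was called by limma and 6 had an unadjusted p under 0.05, while edgeR on all 10 libraries called 3 and DESeq2 5. The log2 fold changes stayed negative for all 10 genes in all 26 alternatives. Some alternatives left the means of both mAM groups as they were, such as another filter, no variance trend or leaving out an ImmAM library. In those the sign could not change.

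RXR-deficient mAM replicate 3 was the lowest of the 4 RXR-deficient libraries in 9 of the 10 genes. It also had the highest summed level of the 5 monocyte markers in the table among the mAM libraries, at 33.5 CPM against 12.0 to 18.4 CPM, and Cx3cr1 at 8.34 CPM against 0.583 to 4.69 CPM. In replicate 3 the 12 AM markers also had their highest sum, at 32016 CPM against 21718 to 28422 CPM in all other libraries. The part of the monocyte transcripts in the lower licensing values was not tested.

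**Figure D2:**
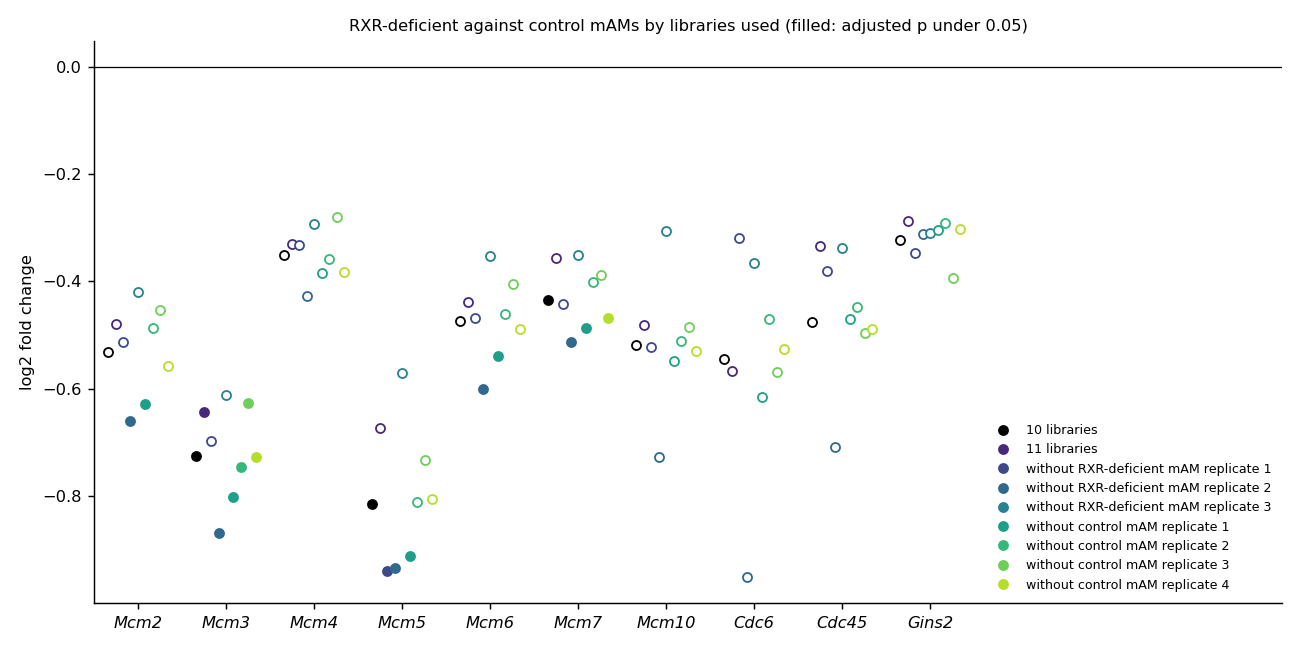
Log2 fold change of each gene in RXR-deficient against control mAMs (vertical axis) with 10 libraries, with 11, and without each mAM library in turn; filled points have an adjusted p under 0.05. All points are below 0, and Mcm4, Mcm10, Cdc6, Cdc45 and Gins2 have no filled point.

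ImmAMs were compared with control mAMs and with RXR-deficient mAMs, which share their genotype. Against control mAMs each of the 10 genes was called lower. Their median was −1.74 on the log2 scale, whereas 25.3% of all genes were called lower. In 9 of the 10 the libraries did not overlap, against 26.4% of all genes. Against RXR-deficient mAMs 9 of 10 were called lower (20.2% of all genes), and the same 9 did not overlap (26.3% of all genes). The median was −1.24 there. The study itself reported lower E2F and DNA repair gene sets in ImmAMs than in control mAMs. It tied the lower genes to replication and cell cycle terms, and the higher genes to terms that included proliferation and division.

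Within the same genotype Mcm10 was 9.58-fold lower (limma p-adj = 3.66e-06, log2 fold change −3.26 with SE 0.312) and Mcm5 5.83-fold lower (−2.54, SE 0.2, p-adj = 6.09e-07) in ImmAMs; with 1 CPM added these were −2.19 and −2.28. Cdc6, Mcm6 and Mcm2 followed, at −2.27 (SE 0.379, −1.56 with 1 CPM added), −1.68 (SE 0.135) and −1.42 (SE 0.152) on the log2 scale. Cdc45, Mcm7, Mcm4 and Mcm3 were lower by smaller amounts, at −1.06 (SE 0.232), −0.996 (SE 0.109), −0.89 (SE 0.136) and −0.63 (SE 0.144). These 9 genes were called in every alternative. The comparisons share libraries, so they are not independent of each other.

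ImmAMs also held transcripts that mAMs nearly lacked. The 5 monocyte markers in the table summed to 204 to 211 CPM in ImmAMs and 12.0 to 18.4 CPM in control mAMs, and the 5 interstitial macrophage markers to 170.2 to 193 CPM and 0.594 to 1.63 CPM. The 4 neutrophil markers in the table summed to 14.2 to 24.0 CPM in ImmAMs and 3.83 to 9.19 CPM in control mAMs, and the 2 dendritic cell markers to 20.7 to 24.1 CPM and 5.40 to 7.24 CPM. The B cell, eosinophil, alveolar type 2, erythroid, and club and ciliated cell markers in the table summed to under 10 CPM in every library, and none of the 9 T and NK cell or the 8 endothelial cell and fibroblast markers was in the table. The part of other cells in the licensing values of ImmAMs was not tested.

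**Figure D3:**
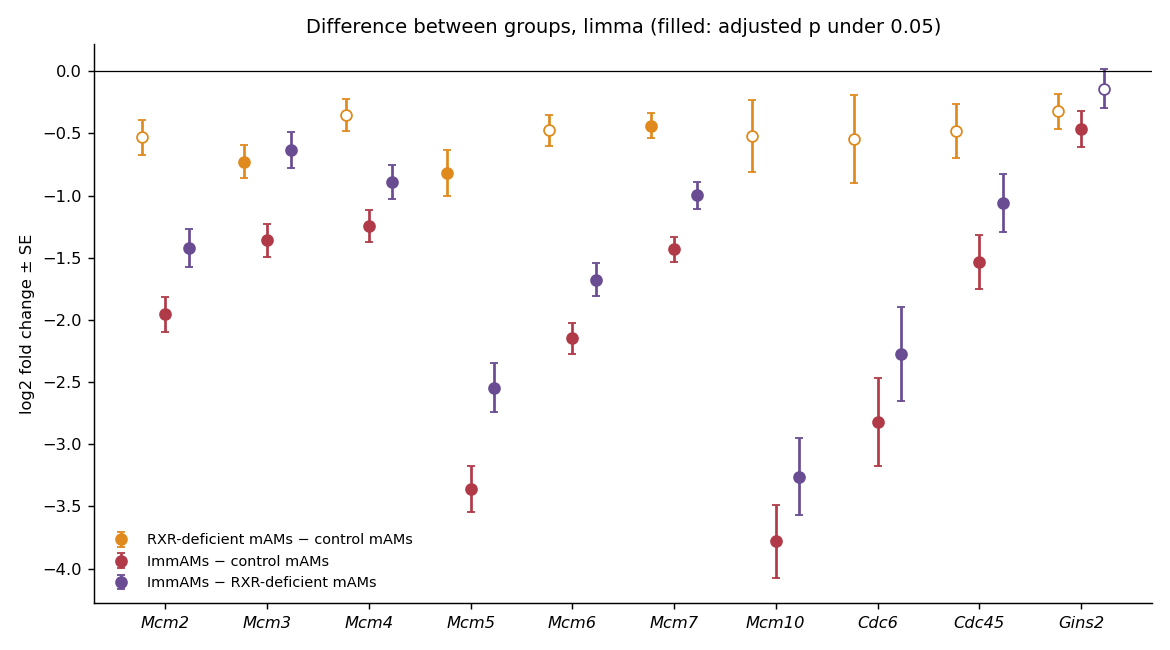
Log2 fold change with SE (vertical axis) of the 10 genes in the 3 comparisons from limma; filled points have an adjusted p under 0.05. Mcm5 and Mcm10 lie lowest in both comparisons of ImmAMs, at −3.36 and −3.78 against control mAMs, and the RXR-deficient mAMs lie between −0.82 and −0.32.

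Levels can be set beside each other between genes only per length. In CPM per kilobase of coding length, control mAMs held 65.6 ± 6.13 (SD, n = 4) of Gins2. The next were Mcm7 at 31.8 ± 3.20, Mcm3 at 31.1 ± 4.89 and Mcm6 at 28.1 ± 3.28, whose ranges overlapped. Compared library by library, Mcm7 and Mcm3 were both above Mcm6 in every control library, while their own order changed between libraries. The range of Mcm4 at 23.5 ± 2.48 overlapped with that of Mcm6. Mcm5 at 18.6 ± 2.78 lay just below Mcm4, and its range overlapped with that of Mcm2 at 15.2 ± 2.40. Within each control library, however, Mcm6 was above Mcm4 and Mcm5 above Mcm2. Cdc45 (4.60 ± 0.205), Cdc6 (4.23 ± 0.545) and Mcm10 (3.80 ± 0.215), which overlapped as neighbours, were below all ring genes. The place of Gins2 rests on the length used, since its longest transcript is 3900 bases for a coding length of 555. Per kilobase of the longest transcript its mean of 9.34 ± 0.873 was below that of all 6 ring genes, though its libraries (8.04 to 9.93) overlapped with those of Mcm2, from 9.52, and Mcm5, from 9.85.

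The subunits of the ring were not lowered evenly in ImmAMs. Of the summed CPM per kilobase of Mcm2 to Mcm7, Mcm5 made up 12.5% ± 0.616 (SD, n = 4) in control mAMs, 10.4% ± 1.82 (SD, n = 3) in RXR-deficient mAMs and 3.96% ± 0.578 (SD, n = 3) in ImmAMs. Mcm6 made up 19.0% ± 0.149, 19.8% ± 0.444 and 13.8% ± 1.33. The shares of Mcm5 and Mcm6 in every ImmAM library were below those in every mAM library. Mcm3 made up 20.9% ± 1.10, 18.3% ± 0.860 and 26.3% ± 2.25 in the same order, and its ImmAM libraries, at 24.2% to 28.7%, were above all mAM libraries. Mcm4 made up 15.9% ± 0.792, 18.1% ± 1.20 and 21.9% ± 3.82, with overlap between both groups of CD11cCre+ cells. Mcm7 made up 21.5% ± 1.09, 23.1% ± 0.900 and 25.7% ± 1.81, again with overlap. Mcm2 made up 10.2% ± 0.588, 10.2% ± 0.304 and 8.46% ± 0.508, lower in every ImmAM library than in any mAM library. These shares are descriptions with no test, and with the longest transcript as the length the Mcm5 share was 11.9%, 9.88% and 3.68%.

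**Figure D4:**
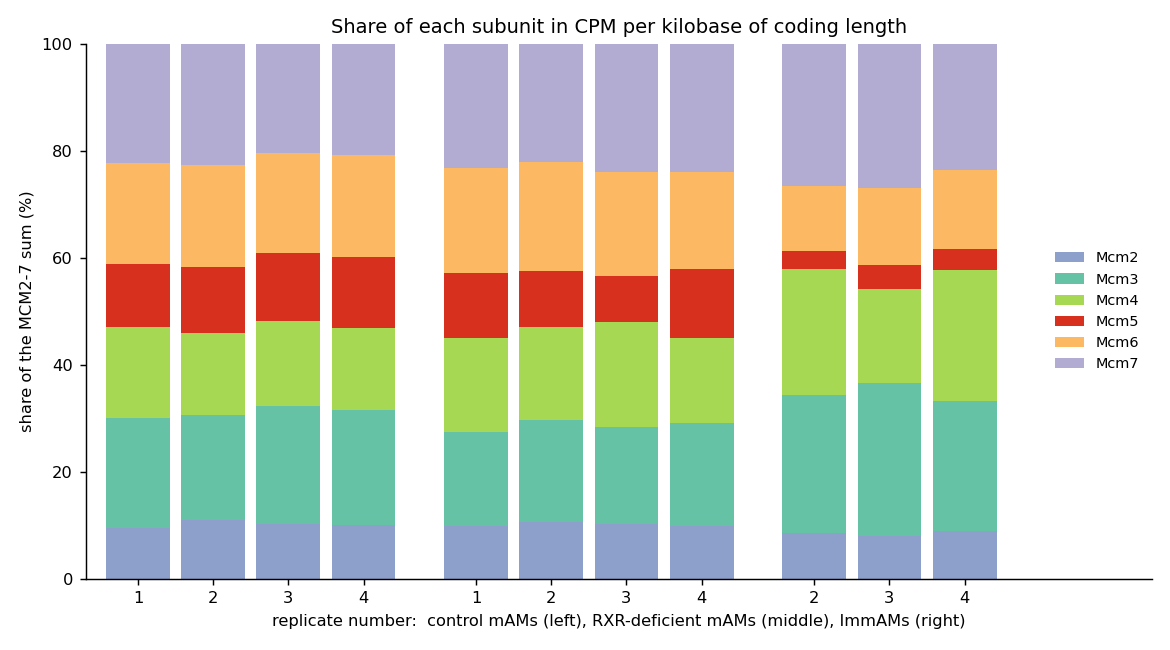
Share of each of Mcm2 to Mcm7 (vertical axis, percent) in their summed CPM per kilobase of coding length, as a stacked bar for each library of control mAMs, RXR-deficient mAMs and ImmAMs. The Mcm5 band is 11.8% to 13.2% in control mAMs and 3.38% to 4.54% in ImmAMs.

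The neighbours of the licensing step were counted in 7 lists, none of them tested as a set. Of 9 genes of origin recognition and loading, Cdt1, the partner of CDC6 in loading, was called lower in RXR-deficient mAMs (limma p-adj = 0.0146, log2 fold change −0.68 with SE 0.129), and the list's median was 0.03. Cdt1 was at 33.6, 40.0, 33.7 and 42.2 CPM in control mAMs, at 21.3, 28.8 and 20.5 CPM in RXR-deficient mAMs (27.3 CPM in replicate 4) and at 18.3, 19.2 and 18.7 CPM in ImmAMs. The groups did not overlap. Its call in RXR-deficient mAMs was lost without replicate 1 (p-adj = 0.0624) or 3 (0.0699) of that group, without a variance trend (0.0570) and with control replicates 1 and 3 only (0.118). In ImmAMs 5 of the 9 were called lower against control mAMs, among them Cdt1 (−0.99) and Gmnn, the CDT1 inhibitor geminin (−0.76), with a list median of −0.22. Over all genes 25.3% were called lower. Orc1, the subunit of the recognition complex that varies with the cycle, was at 1.26 to 1.89 CPM in control mAMs and 0.0263 to 0.394 CPM in ImmAMs, with no read in ImmAM replicate 4. Orc1 reached 1 CPM in 0 of the 3 ImmAM libraries and passed the filter through the mAMs. Against RXR-deficient mAMs 3 of the 9 were called lower in ImmAMs, beside 20.2% of all genes. Of these 3, Orc6 (limma p-adj = 0.0382) lost its call in 13 of 26 alternatives, edgeR (0.0576) and DESeq2 (0.0508) among them.

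In RXR-deficient mAMs none of the 16 genes of origin firing and helicase partners, the 24 polymerase and fork genes, the 7 genes of nucleotide supply, the 9 of licensing turnover or the 14 of mitosis was called by limma, while 2, 9, 1, 2 and 0 of them had an unadjusted p under 0.05. Over all genes tested, 3042 of 12889 had an unadjusted p under 0.05 in this comparison. edgeR also called none of the genes of these lists, limma-voom called Chaf1a lower, and DESeq2 called 1, 2, 1, 0 and 0 of them lower (Mcm9, Chaf1a and Pold1, and Dctpp1). Their median log2 fold changes were −0.14, −0.16, −0.21, −0.17 and −0.14. Of the 17 genes of the E2F and RB family 1 was called higher, Rbl2, the pocket protein p130 of resting cells, at 0.34 (limma p-adj = 0.0212, SE 0.0721), a call that was lost in 6 of 26 alternatives, namely without RXR-deficient replicate 1 (0.0802) or 3 (0.0897), with only the groups compared (0.0602), without a variance trend (0.0613), with the replicate block (0.0987) and with control replicates 1 and 3 only (0.0625).

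In ImmAMs against control mAMs, 13 of the 16 firing genes were called lower and 1 higher. For this and the following lists, 25.3% of all genes were called lower in that comparison. Clspn, which relays checkpoint signals at the fork, had a log2 fold change of −3.14, Timeless of −2.27 and Mcm8 of −2.15, while Donson, a replisome protein, was higher at 0.57. Among the polymerase and fork genes 20 of 24 were lower, with Pole, the catalytic subunit of polymerase epsilon, at −3.32 and the histone chaperone subunits Chaf1b and Chaf1a at −2.27 and −2.10. All 7 genes of nucleotide supply were lower, among them Rrm2, a subunit of ribonucleotide reductase, at −4.43 and Tk1, thymidine kinase, at −1.58. In the E2F and RB family 10 of 17 were lower, with the repressive factors E2f8 at −3.62 and E2f7 at −3.51 and the cyclin Ccne1 at −3.56, and 2 were higher, Rbl2 at 0.44 and E2f5 at 0.69; the call of E2f5 was lost in 10 of 26 alternatives. With 1 CPM added before the logarithm Ccne1 was at −1.91, E2f7 at −2.11, E2f8 at −2.50, Rrm2 at −3.79 and Mcm8 at −1.43, and the other genes named here moved by less than 1.5 times. Ccne1 and E2f7 reached 1 CPM in 0 of the 3 ImmAM libraries, and E2f8 and Mcm8 in 1. These 4 genes therefore passed the filter on low values through the mAMs.

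Of the 9 genes of licensing turnover 6 were lower, among them Cdc20 (−3.91), Dtl, which directs CDT1 for destruction (−3.57), and Fbxo5 (−1.08), and 1 was higher, Cul4a at 0.34. All 14 mitosis genes were lower, with a median of −3.79 and with Ccnb2 at −5.04, Ccnb1 at −4.83 and Ube2c at −4.52. With 1 CPM added before the logarithm the mitosis median was −2.99, with Ccnb2 at −3.72, Ccnb1 at −3.38 and Ube2c at −2.98, and Cdc20 was at −2.78 and Dtl at −2.45. Ccnb2, Ccnb1, Ube2c, Cdc20 and Dtl reached 1 CPM in 0 of the 3 ImmAM libraries and also passed the filter through the mAMs. Against RXR-deficient mAMs the numbers called lower were 12 of 16, 19 of 24, 6 of 7, 10 of 17, 6 of 9 and 14 of 14 in the same order of lists. Of all genes 20.2% were called lower there. Donson and Cul4a were called higher there, and Cul4a (p-adj = 0.0487) lost its call in 11 of 26 alternatives.

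**Figure D5:**
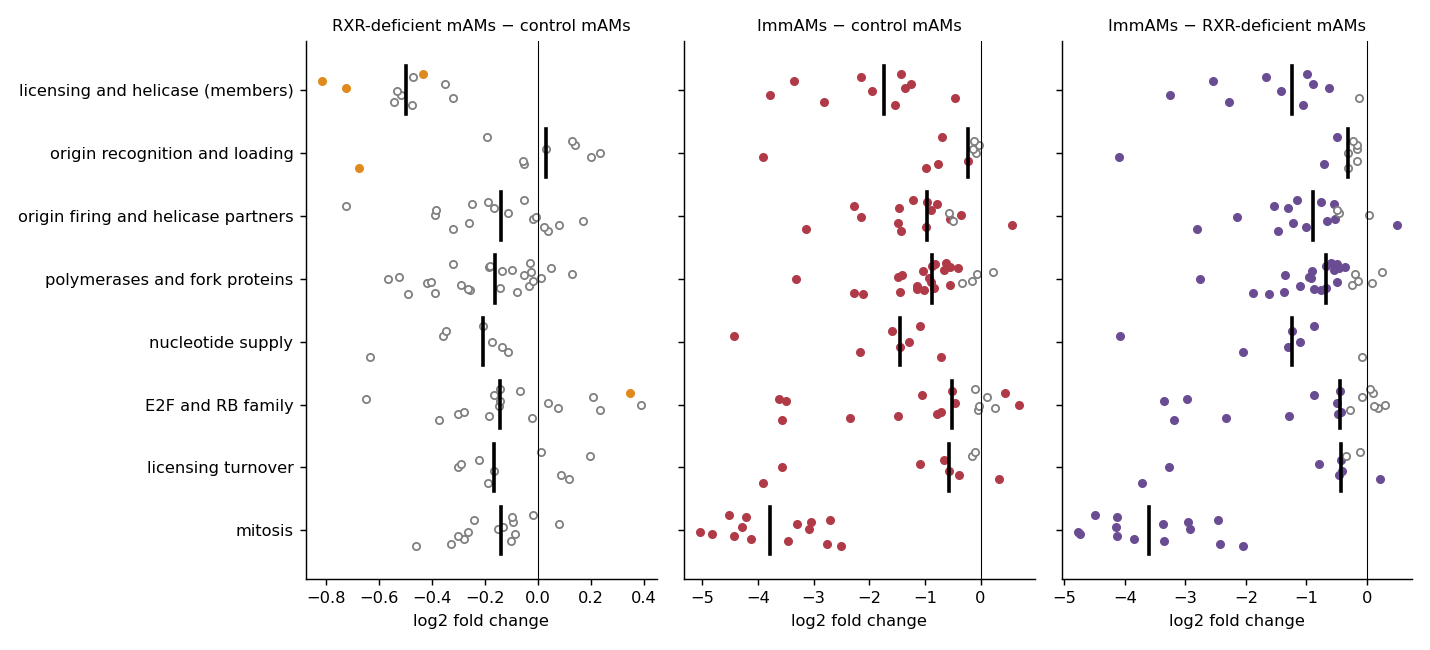
Log2 fold change (horizontal axes, which differ in range between panels) of every gene of the 10 members and the 7 other lists in each comparison; filled points have an adjusted p under 0.05 and black bars are medians. Members have a median of −0.50 in RXR-deficient mAMs, and the mitosis list has the lowest median in both comparisons of ImmAMs, −3.79 and −3.61.

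The 10 genes summed to 370.2 to 470 CPM per control library, 252 to 339 CPM in RXR-deficient mAMs (344 CPM in replicate 4) and 137 to 150.4 CPM in ImmAMs. The 14 mitosis genes summed to 409 to 499, 371 to 455 (393 in replicate 4) and 38.5 to 43.6 CPM. The licensing sum per mitosis sum was therefore 0.894 to 0.991 in control mAMs, 0.680 to 0.746 in RXR-deficient mAMs (0.877 in replicate 4) and 3.45 to 3.62 in ImmAMs. The ranges of this ratio did not overlap between the groups, whereas the mitosis sums of both groups of mAMs did. By these sums, in ImmAMs the licensing transcripts were lower by less than the mitotic ones, and in RXR-deficient mAMs by more. Cdt1 per Gmnn was 1.62 to 2.20 in control mAMs, 1.05 to 1.34 in RXR-deficient mAMs (1.10 in replicate 4) and 1.38 to 1.73 in ImmAMs. These ratios carry no test.

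Across the 11 libraries the log2 levels of the members followed each other, with a median Pearson r of 0.937 over 45 pairs, which holds the difference between the groups. After each group was centred on its own mean the median was 0.447. Mcm2 and Mcm6 stayed closest (r = 0.875), and Gins2 had a median r of 0.02 with the other members. Of the 9950 genes at a mean of 5 CPM or more, those most like the members' mean profile over the 11 libraries were Capn1, Dnah11, Krt79, Jpt1, Scarb1, Rpa1, Cyb5r3 and Cib2, with r of 0.993 to 0.995. Of these Rpa1, a subunit of the single-strand binding protein at the fork, is on a list of replication genes, and Krt79 is an AM marker that went from 671 CPM in control mAMs to 233 CPM in RXR-deficient mAMs and 6.54 CPM in ImmAMs. With each group centred, the 8 genes were Tubb5, Hmgb2, Krt19, Phax, Thbd, Rhoc, Sod1 and Sdf2, with r of 0.934 to 0.967. Thbd, thrombomodulin, had a mean of 118 CPM in ImmAMs against 32.4 CPM in control mAMs, the opposite order of the members' means. Points in these correlations share their library and its depth, and no p is given.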

How the data were processed

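RNA from sorted AMs was sequenced as single-end reads of 60 bases. Per the labels and the study's methods, the authors trimmed reads with cutadapt, discarded reads under 30 bases, mapped the rest to the GRCm38 transcriptome and estimated expected counts with RSEM 1.3.1. They scaled libraries by TMM in limma. The labels name another sequencer and lung tissue, whereas the methods name a NextSeq 2000 and lavage. In the deposited table each CPM value is (reads + 0.5) times a step fixed per library, and whole reads (within 0.01) were recovered for 100% of values.

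Log2 CPM of 10 libraries (without RXR-deficient mAM replicate 4, which the study left out) was fitted in limma 3.58.1 (R 4.3.3) with 3 group means and a variance trend. The filter kept genes that reached 1 CPM in 3 or more libraries (12889, all 10 members among them), and p-values, two-sided, were adjusted by Benjamini-Hochberg with a threshold of 0.05. edgeR 4.0.16, DESeq2 1.42.0 and limma-voom used the recovered reads, on which edgeR called 3, DESeq2 5 and voom 4 members in RXR-deficient mAMs. The fits were tested on simulated counts with the same spread setting for every gene and changes in RXR-deficient mAMs only. That test does not cover the dependence on single libraries. The members, lists and tests were chosen with earlier results of these data known. Named genes are the members, Rxra, Rxrb, for each list and comparison up to 2 called genes with the largest rise and 3 with the largest fall, and the 8 genes closest in profile before and after centring; other genes were named after their values were seen. Values of 1 further list gene stay within the counts but are not reported here.

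Positions and lengths come from GENCODE vM21 (12919 of 12932 genes found). Coding length was taken from it instead of from RefSeq proteins. Replicate numbers of same-numbered libraries in different groups had correlations from −0.129 to 0.059 in the 10 libraries and from −0.129 to 0.246 in all 11, not all over 0.1, so they were not treated as pairs. Whether RXR-deficient mAMs and ImmAMs of the same number came from the same mice is not stated, and these correlations cannot decide it.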

Additional observations from a re-analysis of the deposited data

Results flagged for a closer look

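Gins2 in control mAM replicate 3, at 31.4 CPM, was set apart from the other control libraries, at 37.7 to 38.7 CPM, with a gap of 0.857 of the group's range, past Dixon's critical value. It was the sole such value in 20 groups of 4 libraries (10 genes in control mAMs and in RXR-deficient mAMs with replicate 4), and chance gives about 1 in 20.

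Cdc45 in RXR-deficient mAM replicate 4, a library outside the fit, was at 8.32 CPM, above the highest control library at 8.26 CPM.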

How the results depend on the processing

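In ImmAMs the counts of members called were 9 or 10 of 10 against control mAMs and 9 of 10 against RXR-deficient mAMs in every alternative (9 with a fold of at least 1.5, which Gins2 misses). With that fold, 3438 and 2800 genes were called in these comparisons and 315 in RXR-deficient mAMs. In RXR-deficient mAMs the members called, 3 of 10 with 10 libraries, were 1 with all 11 libraries or only the groups compared, 0 without a variance trend (7 at an unadjusted p under 0.05, with no share over all genes given), 5 with pseudocounts of 0.5 or 1, a filter at 5 CPM, robust eBayes or DESeq2, and 0 to 5 with a library left out. Both alternatives added after seeing the data moved this count: Xist as a covariate gave 5 members and control replicates 1 and 3 only gave 0. The genes called there, 624 with 10 libraries, were 337 with all 11 libraries, 199 with only the groups compared, 122 without a variance trend, 1368 with DESeq2, 153 with control replicates 1 and 3 only and 162 to 861 with a library left out. The cause was not tested. The replicate block gave 1 member and 174 genes in RXR-deficient mAMs, and 10 and 9 members in ImmAMs. The labels give only a shared number, and whether libraries share mice is not stated. The log2 fold change of Gins2 between ImmAMs and RXR-deficient mAMs ranged from −0.34 to 0.0225 with a library left out, the latter without ImmAM replicate 2. In ImmAMs, Mcm10 and Cdc6 rest on 7 to 28 reads per library.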

Other observations

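Xist, transcribed from the inactive X chromosome of female cells, was at 55.5 to 539 CPM and the Y-linked gene Ddx3y at 39.7 to 107 CPM over the 11 libraries, so both were read in every library. Xist was at 119 to 539 CPM in control mAMs, 55.5 to 458 CPM in RXR-deficient mAMs and 302 to 345 CPM in ImmAMs. The labels give no sex and do not say whether a library pools mice, which was not tested.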
